A study of Arabidopsis thaliana with 16 samples.

Results

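The 10 genes described here encode zinc transporters of Arabidopsis thaliana: ZIP1, ZIP3, ZIP4, ZIP5 and ZIP9 of the ZIP family, the P-type ATPases HMA2, HMA3 and HMA4, and the cation diffusion facilitators MTP1 and MTP2. They were chosen by name, as members of families known to move zinc, with earlier results of these data known. They are 10 of the 32678 loci counted. RNA was sequenced from roots and leaves of 25-day-old plants that differ at PHO1, whose product exports phosphate into the root xylem, and no treatment was applied. The 4 genotypes all carry the pho1-4 mutation: the mutant itself (KO), the mutant with the PHO1 gene restored (Compl), and EXS32 and EXS34, which are lines 32 and 34 of the mutant expressing the EXS domain of PHO1 joined to GFP. Each genotype was represented by 2 libraries in each organ, which gives 16 libraries, and there is no wild-type group. The sources used here do not give the promoters that drive the transgenes. Nothing in the labels ties the 2 libraries of a group to different plants, and the spread behind each p-value may therefore be technical.

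ZIP proteins carry zinc into the cytosol. When zinc is short, the transcription factors bZIP19 and bZIP23 switch on a set of genes that includes ZIP1, ZIP3, ZIP4, ZIP5 and ZIP9, through a palindromic sequence called the zinc deficiency response element. HMA2 and HMA4 are plasma membrane pumps of the root vasculature that load zinc into the xylem for transport to the shoot, whereas HMA3 and MTP1 move zinc into the vacuole and MTP2 moves it into the endoplasmic reticulum.

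The element recognised by bZIP19 and bZIP23 is shown because it is the known binding sequence of these regulators. Its core is the palindrome TGTCGACA, which reads the same on both strands, and it was searched from 1500 bases before to 400 bases after each annotated gene start in the RefSeq TAIR10.1 assembly. The limits of this window were widened after the first matches had been seen. The core lay in this window of 540 of 26696 protein-coding genes, which is 2.02%. It was found in 3 of the 10 zinc transporter genes, ZIP3, ZIP4 and ZIP5, with 4 matches in all. It was also found in each of the 5 other genes listed as known bZIP19 and bZIP23 targets (ZIP10, ZIP12, IRT3, NAS2 and NAS4). These genes were listed as targets of the factors that bind this element, so their matches are not an independent result. In the sequences below the core is in capitals with 10 bases on either side, on the strand of the gene.
ZIP3, chr2:13702703-13702730, plus strand: gtacattttaTGTCGACAttctttcgcc
ZIP5, chr1:1548663-1548690, minus strand: gtacaatttaTGTCGACAttctctcgac
ZIP4, chr1:3667161-3667188, minus strand: aacgcgaaaaTGTCGACAtatttggcta
ZIP4, chr1:3667033-3667060, minus strand: gtccatagaaTGTCGACActctttcact

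The matches of ZIP3 and ZIP5 lie 1355 and 831 bases before the annotated gene start. Their windows are identical at 25 of 28 bases, and at 17 of the 20 bases outside the core. ZIP4 has a match 39 bases before its start and another 89 bases inside the gene. The core was not found in the window of ZIP1, ZIP9, HMA2, HMA3, HMA4, MTP1 or MTP2. A match describes these letters and is not evidence of binding, and a window with no match says nothing about the factors.

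**Figure D1:**
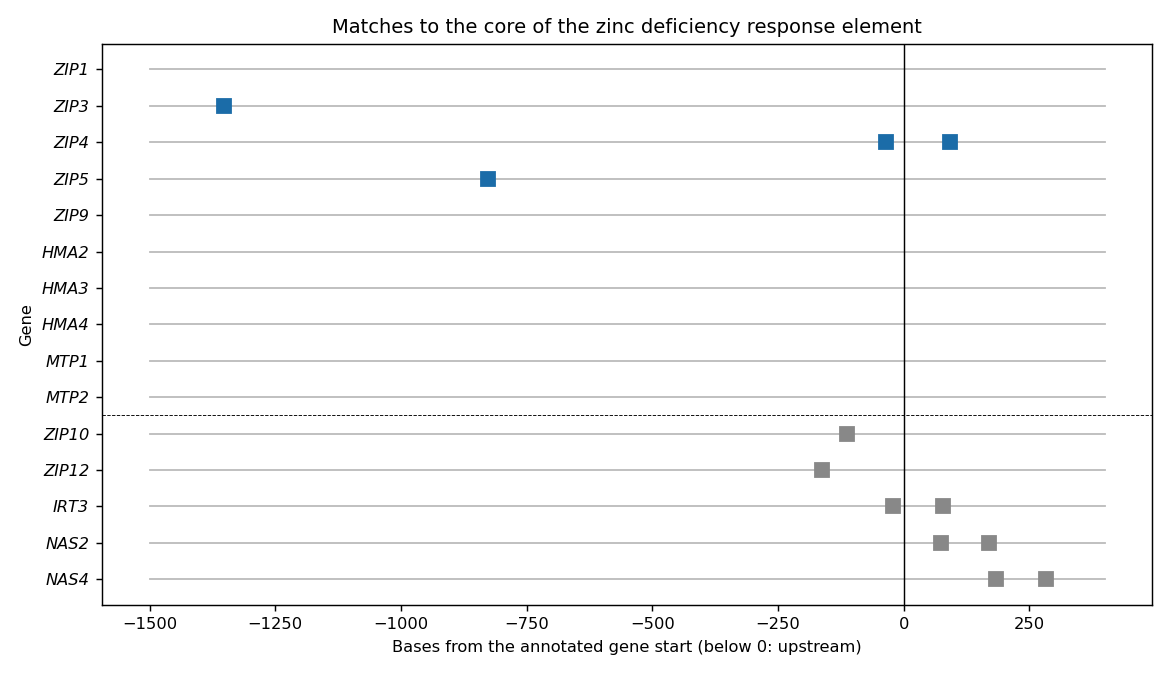
Positions of the TGTCGACA core relative to the annotated gene start (x axis, bases, gene start at 0) for the zinc transporter genes and the 5 other bZIP19 and bZIP23 target genes (y axis). Each square is a match and each line the window searched. The ZIP3 and ZIP5 matches lie 1355 and 831 bases before the start, whereas ZIP4 has matches on either side of its start.

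In the TAIR10.1 annotation HMA2 (AT4G30110, chromosome 4, 14720062 to 14725311, minus strand) and HMA3 (AT4G30120, chromosome 4, 14730215 to 14733628, minus strand) are neighbours separated by 4903 bases. The ZIP genes lie at chromosome 3, 4051651 to 4053201 (ZIP1, AT3G12750, minus strand), chromosome 2, 13704068 to 13706928 (ZIP3, AT2G32270, plus strand), chromosome 1, 3665087 to 3667139 (ZIP4, AT1G10970, minus strand), chromosome 1, 1544927 to 1547849 (ZIP5, AT1G05300, minus strand) and chromosome 4, 15932420 to 15934762 (ZIP9, AT4G33020, minus strand). HMA4 (AT2G19110, plus strand) spans 8278789 to 8286561 of chromosome 2 and MTP1 (AT2G46800, plus strand) spans 19235374 to 19239577 of the same chromosome. MTP2 (AT3G61940, plus strand) spans 22937170 to 22938577 of chromosome 3. ZIP1 overlaps ALIS1 on the opposite strand by 125 bases, and HMA2 abuts AT4G30100 on the opposite strand. No source used here gives the strand setting of the counting, so reads in the shared 125 bases cannot be assigned with certainty.

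Reads assigned to genes numbered 20139794 to 31405117 in root libraries and 9465995 to 15530134 in leaf libraries. For the 8 leaf libraries the deposited files carry the name of another genotype than the labels do. The leaf files labelled KO are named for Compl, those labelled Compl for EXS32, those labelled EXS32 for EXS34 and those labelled EXS34 for KO. Leaf libraries are therefore called by their label, and no leaf genotype is taken as settled. Levels are given in CPM, the counts of a gene per 1000000 reads assigned to genes in its library. PHO1 transcripts were at 1456 to 2883 CPM in roots and 46.8 to 109 CPM in leaves, and at 2249 and 1987 CPM in the KO root libraries, inside the range of the other root libraries. The PHO1 count thus does not separate the root genotypes. In leaves the libraries labelled Compl (75.6 and 109 CPM) and EXS32 (71.9 and 87.2 CPM), named for EXS32 and EXS34 in their files, were above those labelled KO (60.1 and 63.6 CPM) and EXS34 (62.4 and 46.8 CPM), named for Compl and KO. These values were not used to settle the leaf names. The organ labels were checked with markers: 6 leaf markers summed to 24172 to 31331 CPM in leaves and 18.6 to 102 CPM in roots, and 6 root markers summed to 306 to 736 CPM in roots and 0.706 to 2.45 CPM in leaves, where up to 4 of the 6 were at 0. Among roots, Compl replicate 1 stood apart on the leading principal component of all genes with a score of 68.3; Compl replicate 2 scored 31.8 and the remaining 6 libraries scored from -44.7 to 8.89. Root calls against Compl are given with and without it.

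The plot of levels by organ sets the genes side by side. HMA4, MTP1, ZIP1 and ZIP4 were higher in roots than in leaves, and ZIP3, ZIP9, HMA3 and MTP2 had almost no leaf reads. By the quasi-likelihood test of edgeR over all 16 libraries, with Benjamini-Hochberg adjustment over 21351 genes and a threshold of 0.05, 4 of the 6 genes that also passed the filter on low counts in leaves were higher in roots and 0 were lower. The other 4 genes (ZIP3, ZIP9, HMA3 and MTP2) passed the filter only through roots, which fixes their direction, so they are described by their reads and their fold changes are given with no test. The background is high: 81.6% of all genes tested passed in either direction and 43.1% were higher in roots. In bulk tissue, a difference in the number of cells of a type and a difference in RNA per cell cannot be told apart. The fold changes of the test are log2 values scaled by the trimmed mean of M-values (TMM), with their standard error.

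ZIP3, a zinc importer of the root, ranged from 60.3 to 155 CPM over the 8 root libraries, with a median of 114 CPM. Its leaf libraries held 30 reads in all, at 0 to 0.644 CPM. The groups did not overlap, and the fitted log2 fold change was 8.02 ± 0.22. ZIP9 was at 4.49 to 8.51 CPM in roots, with a median of 6.001 CPM, and had 6 reads in the leaf libraries together, 5 of which had none. The organs did not overlap for ZIP9 either (log2 fold change 6.67 ± 0.47). A fitted fold change against so few reads depends on the prior count, here and for HMA3 and MTP2, so the counts are the firmer description.

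ZIP1 and ZIP4, which are also targets of bZIP19 and bZIP23, differed far less between organs. ZIP1 ranged from 11.99 to 25.0 CPM in roots (median 13.9 CPM) and from 6.26 to 10.7 CPM in leaves (median 7.93 CPM). Its log2 fold change was 0.44 ± 0.16 (adjusted p = 0.0186). ZIP4 ranged from 10.5 to 25.1 CPM in roots (median 12.5 CPM) and from 4.58 to 8.65 CPM in leaves (median 5.69 CPM), with a log2 fold change of 0.73 ± 0.18 (adjusted p = 0.0026). In CPM, which is not TMM-scaled, the lowest root library of both genes was above the highest leaf library. The 2 scalings differ by 0.559 on the log2 scale in the median over all genes, so this separation may not hold under TMM. ZIP5 did not separate the organs: it was at 10.8 to 36.5 CPM in roots (median 14.2 CPM) and 4.83 to 13.3 CPM in leaves (median 11.0 CPM), and the log2 fold change of 0.13 did not pass (adjusted p = 0.389).

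Of the pumps, HMA4 had the highest level in roots, and HMA3 had few reads in leaves. HMA4 ranged from 225 to 406 CPM in roots (median 339 CPM) and from 25.1 to 31.6 CPM in leaves (median 29.7 CPM), with a log2 fold change of 2.92 ± 0.08 (adjusted p = 1.31e-12). HMA3 was at 6.44 to 15.7 CPM in roots (median 8.87 CPM), against 21 reads in the 8 leaf libraries together (log2 fold change 5.11 ± 0.27). HMA3 is known to carry a frameshift in the Columbia accession, which a transcript count does not show. HMA2, the other xylem-loading pump, overlapped between organs: it was at 19.6 to 50.4 CPM in roots (median 31.3 CPM) and 15.04 to 27.7 CPM in leaves (median 19.1 CPM). Its log2 fold change of 0.16 did not pass (adjusted p = 0.0862).

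MTP1, the vacuolar zinc exchanger, ranged from 85.2 to 168 CPM in roots (median 112 CPM) and from 26.6 to 32.1 CPM in leaves (median 29.1 CPM). The organs did not overlap, with a log2 fold change of 1.45 ± 0.07 (adjusted p = 7.73e-10). MTP2 was near the detection limit everywhere, with 103 reads in the root libraries together and 4 in the leaf libraries, 5 of which had none. Its fitted log2 fold change was 3.52 ± 0.66.

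The scaling matters for the organ comparison. The median log2 difference of all genes, roots over leaves, was 0.0585 with TMM and 0.618 with library size alone, a shift of 0.559. With library size alone, ZIP5 (0.69, adjusted p = 0.000318) and HMA2 (0.72, adjusted p = 2.74e-06) passed too, so that all 6 genes that pass the leaf filter were higher in roots, and the share of calls that were higher in roots over all genes moved from 52.9% to 73.6%. None of these 6 genes was lower in roots under either scaling.

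**Figure D2:**
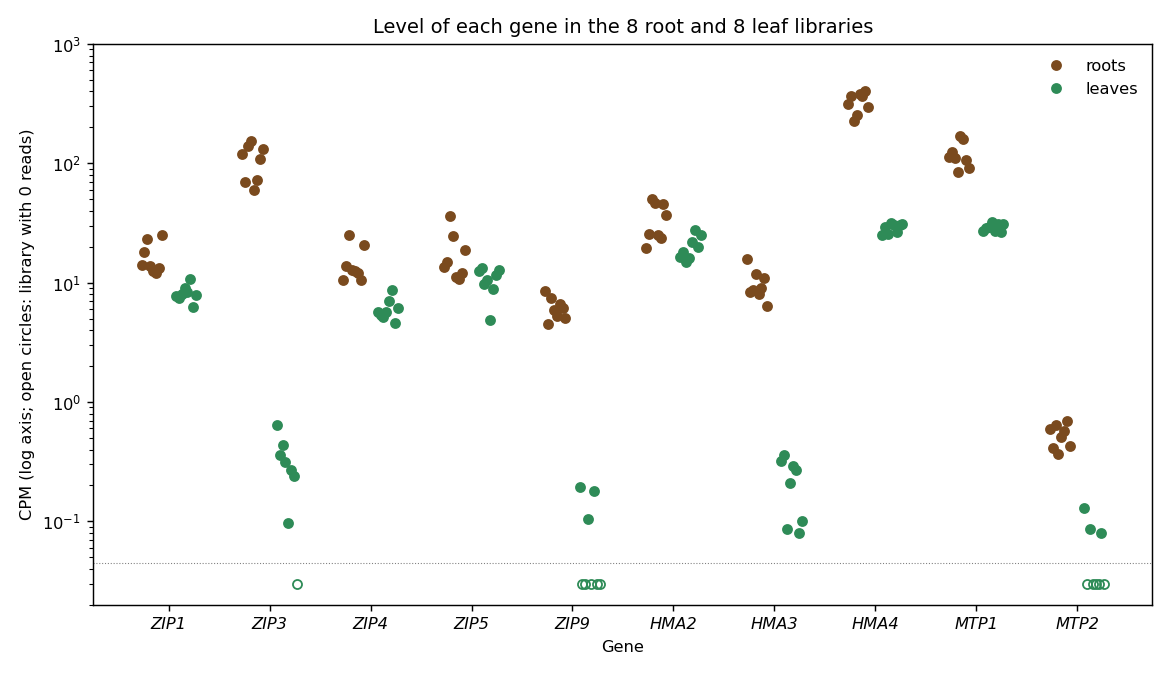
Level of each zinc transporter gene (x axis) in the 8 root and 8 leaf libraries, in CPM on the y axis, which is logarithmic. Points are single libraries, and open circles below the dotted line are libraries with 0 reads. ZIP3, ZIP9 and HMA3 separate the organs widely, whereas ZIP5 and HMA2 overlap.

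Between genes, levels were compared per length, as CPM divided by the kilobases of annotated exon (RPKM). In roots HMA4 (mean 76.5 RPKM, from 52.9 to 95.3 over the 8 libraries), ZIP3 (69.3 RPKM, from 39.0 to 100.4) and MTP1 (46.1 RPKM, from 32.8 to 64.6) stood above the others. ZIP1 at 11.7 RPKM, HMA2 at 10.7 RPKM, ZIP4 at 8.95 RPKM and ZIP5 at 8.17 RPKM formed a middle group whose neighbours in this order differed by less than their SD over libraries (3.22 to 4.07 RPKM). ZIP9 at 4.11 RPKM and HMA3 at 3.77 RPKM were lower, and MTP2 was lowest at 0.40 RPKM. In leaves the order of the mean levels was MTP1 at 11.2 RPKM, HMA4 at 6.75 RPKM, HMA2 at 6.25 RPKM, ZIP1 at 5.79 RPKM, ZIP5 at 4.83 RPKM and ZIP4 at 3.67 RPKM, and the other 4 genes were under 0.2 RPKM.

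Other genes of the pathway behaved in mixed ways between organs. Of the other ZIP genes, 10 of 12 could be tested, of which 9 were higher in roots (IRT1, IRT2, IRT3, ZIP2, ZIP6, ZIP8, ZIP10, IAR1 and ZTP29) and 1 lower. Genes that pass the filter through a single organ are part of these counts, which are given as a description. Among the higher were IRT1, the main iron importer of the root, at 64.6 to 306 CPM in roots and at most 0.387 CPM in leaves, and ZIP2, at 13.9 to 42.9 CPM in roots and at most 0.322 CPM in leaves. ZIP11 was the gene that was lower in roots (log2 fold change -2.09 ± 0.18, adjusted p = 2.71e-07). Of the other heavy metal ATPases, 2 of 5 were higher in roots, HMA5 and RAN1, and 3 lower, the latter being HMA1, PAA1 and PAA2 of the chloroplast. Of the other MTP genes, 6 of 10 were higher (MTP3, MTP4, MTP6, MTP8, MTP10 and MTP11) and 2 lower (MTP5 and MTP7). The direction of MTP5 rests on the TMM scaling. In CPM the gene was higher in roots, at 18.6 to 22.3 CPM against 13.6 to 16.4 CPM in leaves. Of the nicotianamine and metal handling genes 7 were higher (NAS1, NAS2, ZIFL1, ZIFL2, YSL2, FRD3 and PCR2) and 7 lower (NAS3, NAS4, ZIF1, YSL1, YSL3, OPT3 and PCR1). In CPM ZIF1 overlapped between organs, at 26.6 to 53.3 CPM in roots and 29.9 to 60.4 CPM in leaves. The regulator bZIP19 was at 60.8 to 79.4 CPM in roots and 22.1 to 28.3 CPM in leaves, and bZIP23 at 5.28 to 7.23 CPM in roots and 3.65 to 6.05 CPM in leaves. bZIP19 (0.87 ± 0.06, adjusted p = 4.08e-08) and bZIP24 (0.73 ± 0.11, adjusted p = 4.19e-05) were higher in roots, and bZIP23 did not pass.

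The root genotypes were compared to ask how the transporters stand without a working PHO1, with PHO1 restored and with the EXS domain alone. All 10 genes passed the filter on low counts in roots. The comparisons that involve Compl share its 2 libraries, so their folds are not separate results. The clearest differences were in HMA2, ZIP5 and ZIP3, which had their highest mean level in Compl, and in MTP1, which had its highest in EXS32.

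HMA2 was at 50.4 and 46.6 CPM in Compl and at 45.8 and 37.1 CPM in EXS34. It was at 25.2 and 23.5 CPM in EXS32 and at 19.6 and 25.6 CPM in KO. The Compl libraries were above those of every other genotype, the EXS34 libraries were next, and EXS32 and KO overlapped. Against Compl, HMA2 fell in KO (log2 fold change -1.18 ± 0.16, adjusted p = 0.0402) and in EXS32 (-1.05 ± 0.16, adjusted p = 0.0107). The call against KO is close to the threshold: without Compl replicate 1 the log2 fold change was -1.08 (adjusted p = 0.0846), without KO replicate 1 it was -1.01 (adjusted p = 0.159), and without KO replicate 2 it was -1.37 (adjusted p = 0.133). The call against EXS32 held without Compl replicate 1 (-0.94, adjusted p = 0.0352), and it was lost without EXS32 replicate 1 (adjusted p = 0.0808) or replicate 2 (adjusted p = 0.109). AT4G30100, the gene that abuts HMA2, had group means of 106 to 118 CPM in roots.

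ZIP5 was at 36.5 and 24.7 CPM in Compl. It was at 11.96 and 18.7 CPM in EXS34, at 13.5 and 14.97 CPM in KO, and at 11.2 and 10.8 CPM in EXS32. Every Compl library was above every library of the other genotypes, and EXS34 overlapped KO. ZIP5 fell in EXS32 against Compl (log2 fold change -1.53 ± 0.26, adjusted p = 0.0137). Without Compl replicate 1 the difference was -1.17 (adjusted p = 0.0358), and the call was lost without EXS32 replicate 1 (adjusted p = 0.0978) or replicate 2 (adjusted p = 0.115). In KO against Compl the log2 fold change was -1.18 ± 0.25 (adjusted p = 0.0827), and in EXS34 against Compl it was -1.06 ± 0.25 (adjusted p = 0.162). Leaving out Compl replicate 1 gave -0.83 and -0.71 (adjusted p = 0.193 and 0.335).

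ZIP3 was at 140 and 155 CPM in Compl, at 109 and 132 CPM in EXS34, at 119 and 69.6 CPM in KO, and at 60.3 and 72.4 CPM in EXS32. The Compl libraries were the highest, and the KO libraries overlapped with both EXS lines. ZIP3 fell in EXS32 against Compl (log2 fold change -1.204 ± 0.25, adjusted p = 0.0248). Leaving out any of its 4 libraries ended the call (adjusted p = 0.0621 to 0.16), although the log2 difference stayed between -1.33 and -1.06. In KO against Compl it was -0.72 ± 0.24 (adjusted p = 0.177, and 0.356 without Compl replicate 1), and in EXS34 against EXS32 it was 0.86 ± 0.24 (adjusted p = 0.145).

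MTP1 was at 168 and 159 CPM in EXS32, at 114 and 123 CPM in KO, at 107 and 91.0 CPM in EXS34, and at 110 and 85.2 CPM in Compl. The EXS32 libraries were above all others, and EXS34 and Compl overlapped. MTP1 rose in EXS32 against Compl by 0.69 ± 0.15 on the log2 scale (adjusted p = 0.0299). Without Compl replicate 1 the difference was 0.93 (adjusted p = 0.0175), without Compl replicate 2 it was 0.51 (adjusted p = 0.0523), and without EXS32 replicate 1 or 2 the adjusted p was 0.162 or 0.149. MTP1 in EXS34 against EXS32 had a log2 fold change of -0.73 ± 0.15 (adjusted p = 0.0809), and in EXS32 against KO of 0.48 ± 0.15 (adjusted p = 0.282).

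HMA4, the dominant xylem-loading pump by level, was at 225 and 253 CPM in Compl. It was at 316 and 363 CPM in KO, at 379 and 365 CPM in EXS32, and at 406 and 298 CPM in EXS34. Both Compl libraries were below all other root libraries, whereas Compl was highest for HMA2. None of the HMA4 differences passed: the log2 fold change against Compl was 0.59 ± 0.16 in EXS32 (adjusted p = 0.0559), 0.43 ± 0.16 in KO (adjusted p = 0.205) and 0.50 ± 0.16 in EXS34 (adjusted p = 0.251). The EXS32 difference passed in 5 of 11 other settings: DESeq2 (adjusted p = 0.00806), all 16 libraries in 1 fit (0.0149), only the groups compared (0.0432), and library size alone or no filter (0.0453 each). Without Compl replicate 1 the adjusted p was 0.153 in EXS32, 0.443 in KO and 0.492 in EXS34.

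**Figure D3:**
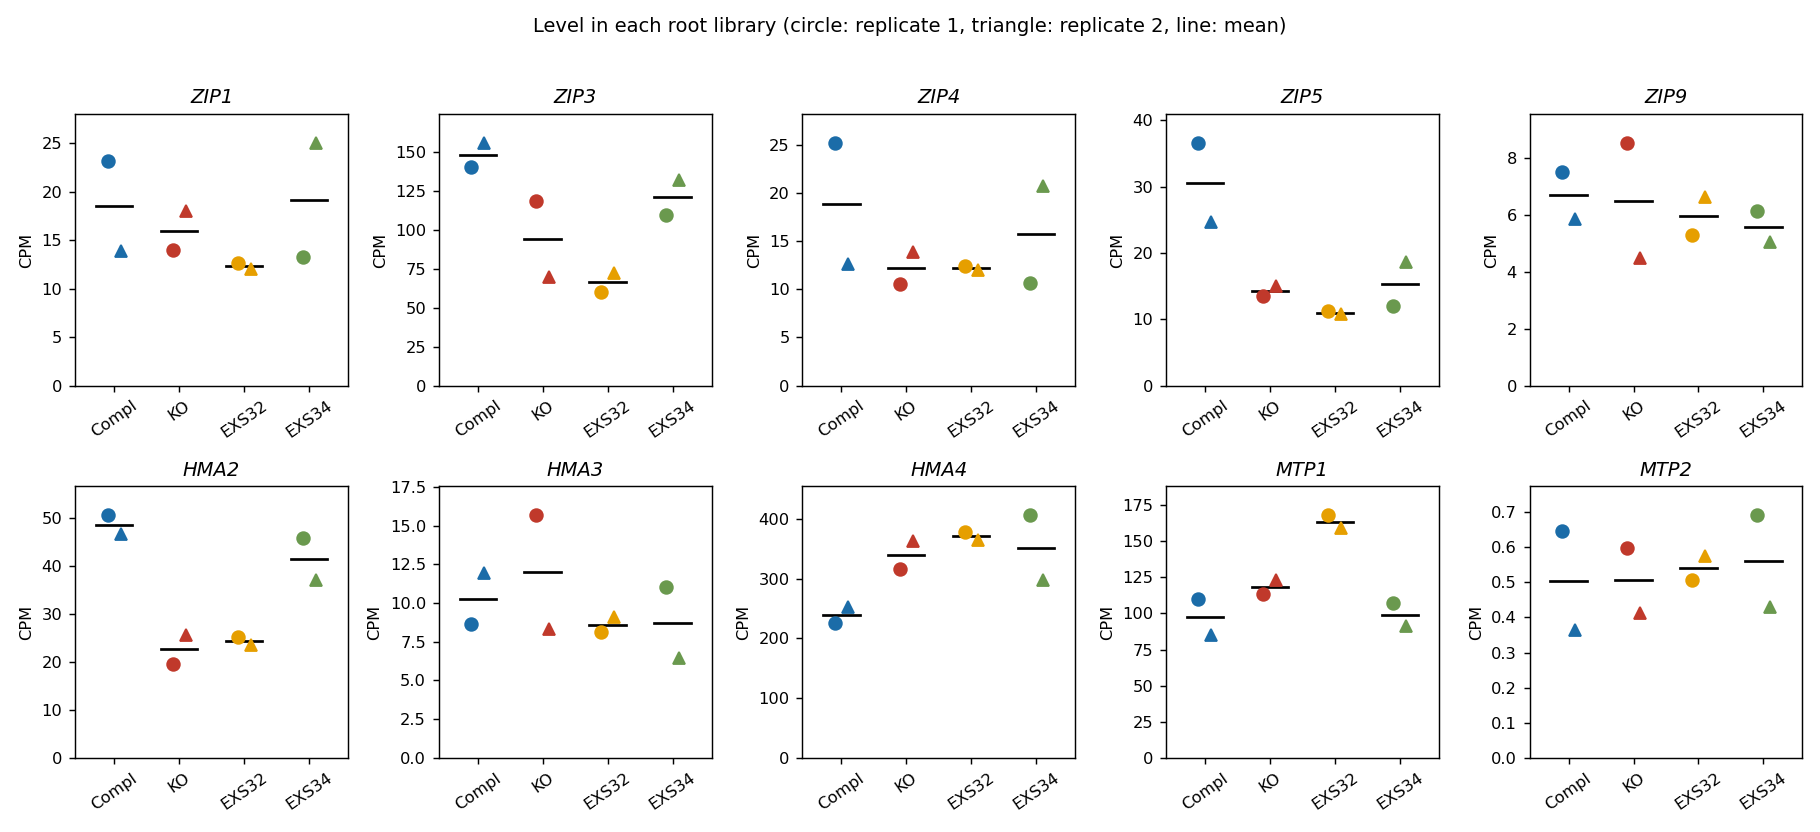
Levels of the zinc transporter genes in the 8 root libraries, in CPM (y axis), by genotype (x axis). Circles are replicate 1, triangles replicate 2 and lines the mean of 2. HMA2, ZIP5 and ZIP3 are highest in Compl, MTP1 is highest in EXS32, and HMA4 is lowest in Compl.

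ZIP1 and ZIP4 followed libraries rather than genotypes. ZIP1 was at 23.1 CPM in Compl replicate 1 and 25.0 CPM in EXS34 replicate 2, and at 11.99 to 17.99 CPM in the other 6 root libraries. ZIP4 was at 25.1 CPM and 20.8 CPM in the same pair of libraries, and at 10.5 to 13.9 CPM in the others. IRT3, a further ZIP gene and bZIP19 target, was also highest in these libraries, at 93.5 and 71.9 CPM against 32.9 to 53.1 CPM. Not every target did so: ZIP3 was highest in Compl replicate 2 (155 CPM) and ZIP9 in KO replicate 1 (8.51 CPM). No genotype difference of ZIP1 or ZIP4 had an unadjusted p under 0.05. What separates the 2 replicates of Compl and of EXS34 in these genes was not tested.

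ZIP9, HMA3 and MTP2 were low, and none of their differences between root genotypes had an unadjusted p under 0.05 by edgeR. The root libraries held 115 to 242 reads of ZIP9, 165 to 445 of HMA3 and 8 to 17 of MTP2. ZIP9 was at 8.51 and 4.49 CPM in KO, 7.50 and 5.87 CPM in Compl, 5.30 and 6.63 CPM in EXS32, and 6.13 and 5.03 CPM in EXS34. HMA3 was at 15.7 and 8.34 CPM in KO, 8.64 and 11.9 CPM in Compl, 8.11 and 9.10 CPM in EXS32, and 11.0 and 6.44 CPM in EXS34. The 4 genotypes overlapped for each gene, and MTP2 stayed between 0.364 and 0.691 CPM.

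By comparison, the counts of genes passing in roots were as follows. In KO against Compl 1 gene of 10 passed, HMA2, where 0.884% of all 20597 genes tested passed and 0.418% were lower. In EXS32 against Compl 4 of 10 passed, 3 lower (ZIP3, ZIP5, HMA2) and 1 higher (MTP1), where 12.4% of all genes passed, 7.27% lower and 5.1% higher. The median log2 fold change in that comparison was -0.47 over the 10 genes and -0.02 over all genes.

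In EXS34 against Compl none passed by edgeR, where 0.131% of all genes did. The unadjusted p was under 0.05 for 2 of the 10, ZIP5 and HMA4, and DESeq2 called 1, ZIP5 (adjusted p = 0.00807), with 3% of all genes. In EXS32 against KO none passed by edgeR (background 0.126%) or DESeq2 (2.61%), with 1 unadjusted p under 0.05, MTP1. In EXS34 against KO none passed by edgeR, where 0% of all genes did. HMA2 was the 1 gene with an unadjusted p under 0.05 there (0.89 ± 0.16, adjusted p = 0.363), and DESeq2 called it (adjusted p = 0.00388), with 0.456% of all genes. In EXS34 against EXS32 none passed by edgeR (background 0.908%). HMA2 (0.76 ± 0.16, adjusted p = 0.0809), MTP1 and ZIP3 had an unadjusted p under 0.05 in that pair, and DESeq2 called these 3, with 5.25% of all genes.

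**Figure D4:**
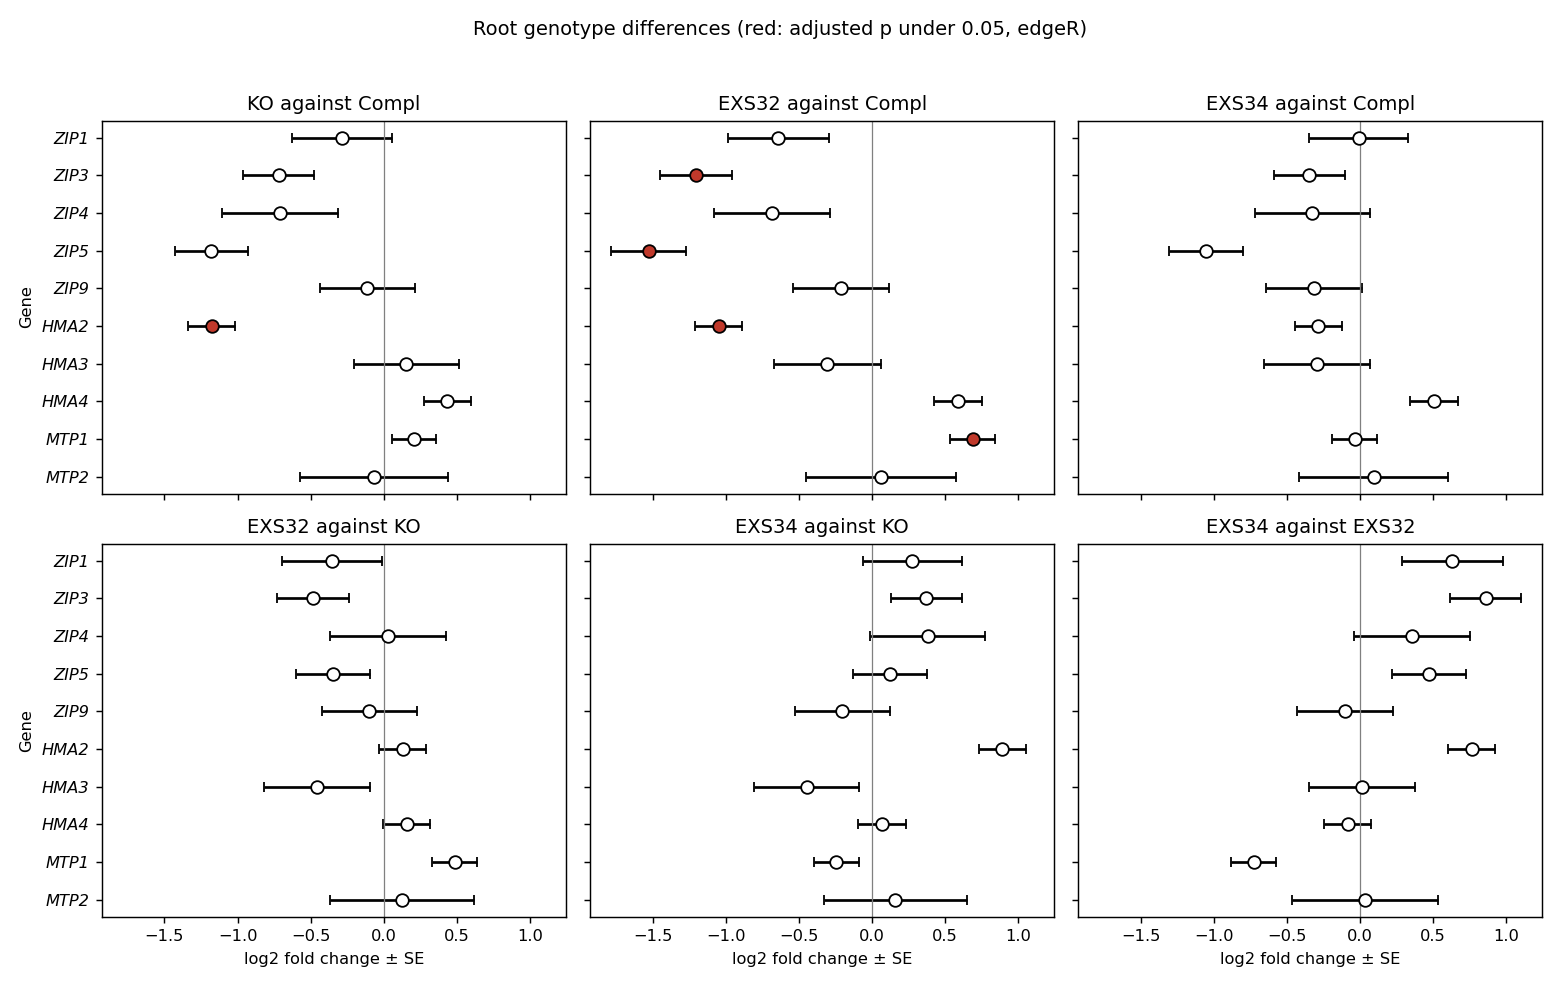
Log2 fold changes of the zinc transporter genes between root genotypes (x axis) with their standard errors, with the genes on the y axis and a panel for each comparison. Red points passed an adjusted p of 0.05 over all genes tested. In EXS32 against Compl, ZIP3, ZIP5 and HMA2 lie below 0 and MTP1 lies above 0.

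The regulators bZIP19 and bZIP23 gave no call in any root comparison: bZIP19 lay between 60.8 and 79.4 CPM and bZIP23 between 5.28 and 7.23 CPM. The related bZIP24 was lower in EXS32 against Compl (-0.70 ± 0.18, adjusted p = 0.0471). Of the 5 other target genes, 4 could be tested. In EXS32 against Compl 1 was higher, ZIP10 (2.61 ± 0.63, adjusted p = 0.0387), and 1 was lower, NAS2, a nicotianamine synthase (-2.63 ± 0.45, adjusted p = 0.015). The called targets thus lay on both sides of 0. Without Compl replicate 1 NAS2 was at -1.68 (adjusted p = 0.0156), and ZIP10 (2.13, adjusted p = 0.147) and bZIP24 (-0.69, adjusted p = 0.104) did not pass.

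Among other metal genes in roots, EXS32 against Compl again gave the most calls, as it did over all genes. There 12.4% of all genes passed, 7.27% lower and 5.1% higher. Of the other ZIP genes 10 could be tested, of which 1 was higher, ZIP10, and 3 were lower, namely IRT2, ZIP2 and ZIP11. ZIP2 was at 38.9 ± 5.72 CPM in Compl and 16.6 ± 3.78 CPM in EXS32 (SD, n = 2). Of the nicotianamine and metal handling genes, 12 could be tested: 1 was higher, ZIF1, and 6 were lower, NAS1, NAS2, ZIFL1, YSL2, OPT3 and FRD3. NAS1 was at 77.3 ± 18.6 CPM in Compl, 63.0 ± 1.51 CPM in KO, 36.4 ± 6.37 CPM in EXS34 and 15.3 ± 0.0157 CPM in EXS32 (SD, n = 2), and it was lower in EXS32 against KO as well (-2.02 ± 0.20, adjusted p = 0.0319). MTP8 and MTP10 were lower among the 10 other MTP genes. Without Compl replicate 1 the calls of IRT2, ZIP2, ZIF1, NAS1, NAS2, ZIFL1, OPT3, MTP8 and MTP10 held (NAS1 -2.07, adjusted p = 0.00479), and those of ZIP11, YSL2 and FRD3 did not (adjusted p = 0.0955 to 0.105).

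PAA2, a copper pump of the thylakoid, was the called gene among the 5 other heavy metal ATPases in 3 root comparisons, at 8.40 ± 0.0863 CPM in Compl, 16.3 ± 0.18 CPM in KO, 13.2 ± 0.0969 CPM in EXS34 and 24.3 ± 0.0818 CPM in EXS32 (SD, n = 2). Its log2 fold change was 0.88 ± 0.11 in KO against Compl (adjusted p = 0.0309) and 1.48 ± 0.11 in EXS32 against Compl (adjusted p = 0.00193). Leaving out Compl replicate 1 gave 0.91 (adjusted p = 0.0675) and 1.52 (adjusted p = 0.00631). In EXS34 against EXS32 the called genes of these lists were PAA2, at -0.89, and NAS1, at 1.24.

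Markers of xylem and secondary walls were highest in Compl, as were HMA2, ZIP5 and ZIP3, while EXS34, which was high for HMA2, was near KO and EXS32 in these markers. The summed level of 6 such markers was 739 and 534 CPM in Compl, 423 and 373 CPM in KO, 415 and 399 CPM in EXS32, and 388 and 466 CPM in EXS34, with none of the 6 at 0. In EXS32 against Compl 4 of the 6 were lower, CESA4, CESA7, CESA8 and XCP1, and without Compl replicate 1 this was 1, CESA8. The root markers summed to 652 and 606 CPM in Compl, 422 and 353 CPM in KO, 309 and 306 CPM in EXS32, and 419 and 736 CPM in EXS34. NRT2.1 alone ranged from 34.4 to 501 CPM over the root libraries, and CASP1, the next by mean level, from 102 to 169 CPM. The median log2 fold change of the 6 root markers against Compl was -0.54 in KO, -0.49 in EXS32 and -0.35 in EXS34. Without Compl replicate 1 these medians were -0.20, -0.08 and -0.08. A difference in root tissue was not tested. Among the root markers NRT2.1 and RHD6 were lower in EXS32 against Compl. The part of these markers in the HMA2, ZIP5 and ZIP3 differences was not tested.

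ZIP5 and ZIP3 had the largest range of root group means among the 10 genes, 1.49 and 1.21 on the log2 scale. The genes whose pattern over the 8 root libraries was nearest to ZIP5 were AAP1, IRX15, PARVUS, DEG14 and GSR 1, at a root mean square difference of 0.139 to 0.149 in centred log2 CPM, out of 19217 genes. AAP1 is an amino acid permease, and IRX15 and PARVUS act in xylan synthesis of secondary walls. Those nearest to ZIP3 were RIPK, a receptor-like cytoplasmic kinase, and 4 loci without a symbol in the table used, AT5G42840, AT2G17060, AT1G11740 and AT1G09932, at 0.148 to 0.174. This measure describes likeness over 8 libraries that include the library standing apart.

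In leaves, 6 of the 10 genes passed the filter on low counts. ZIP3, ZIP9, HMA3 and MTP2 did not, and they were not tested between leaf genotypes. Of the 6 pairs of labelled groups, 1 held a call. By label, HMA2 was at 15.04 and 15.95 CPM in Compl, 16.4 and 18.2 CPM in KO, 20.0 and 25.0 CPM in EXS34, and 21.8 and 27.7 CPM in EXS32. HMA2 was higher in the libraries labelled EXS32 than in those labelled Compl (0.67 ± 0.16, adjusted p = 0.0203), where 14.8% of all 18548 genes tested passed and 8.34% were higher. By file name the same contrast is EXS34 against EXS32. The call was lost without Compl replicate 1 (adjusted p = 0.14), Compl replicate 2 (adjusted p = 0.0891) or EXS32 replicate 2 (0.49, adjusted p = 0.115).

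ZIP5 in leaves was at 12.5 and 13.3 CPM in the libraries labelled KO, 9.74 and 10.5 CPM in those labelled Compl, 4.83 and 8.92 CPM in those labelled EXS32, and 11.6 and 12.8 CPM in those labelled EXS34. The libraries labelled EXS32 were below all others, but the difference from those labelled KO did not pass (-0.90 ± 0.23, adjusted p = 0.0544). Nor did the difference from those labelled EXS34 pass (0.79 ± 0.24 for EXS34 against EXS32, adjusted p = 0.0858).

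ZIP4 was at 7.06 and 8.65 CPM in the libraries labelled EXS32 and at 4.58 to 6.15 CPM in the other 6 leaf libraries, and none of its differences passed (EXS34 against EXS32 -0.58, adjusted p = 0.137; EXS32 against Compl 0.53, adjusted p = 0.123; EXS32 against KO 0.51, adjusted p = 0.171). ZIP1 was at 7.66 and 7.49 CPM in the libraries labelled KO, 7.999 and 9.09 CPM in those labelled Compl, 8.31 and 10.7 CPM in those labelled EXS32, and 6.26 and 7.87 CPM in those labelled EXS34. EXS34 and EXS32 did not overlap for ZIP1, and the difference did not pass (-0.46, adjusted p = 0.193). HMA4 ranged from 25.1 to 31.6 CPM and MTP1 from 26.6 to 32.1 CPM. HMA4 and MTP1 had an unadjusted p under 0.05 in no leaf pair.

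The other 5 leaf pairs gave no call by edgeR in the fit without a replicate block. For KO against Compl the background was 21.1%, with no unadjusted p under 0.05 among the 6 genes, and for EXS32 against KO it was 5.93%, with 3. For EXS34 against KO the background was 6.41%, with 1 unadjusted p under 0.05. For EXS34 against Compl it was 18.4%, with 1, and for EXS34 against EXS32 it was 5.69%, with 3. DESeq2 called none of the 6 genes in these 5 pairs. HMA2 was near the threshold in EXS34 against Compl (0.50 ± 0.16, adjusted p = 0.0538) and in EXS32 against KO (0.52 ± 0.15, adjusted p = 0.0739), and in EXS34 against KO it was at 0.35 ± 0.15 (adjusted p = 0.201). ZIP5 in EXS32 against Compl was at -0.55 (adjusted p = 0.16).

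Of the other zinc and metal genes in leaves, by label, IRT3 (0.92 ± 0.25, adjusted p = 0.029) and ZIP11 (1.32 ± 0.36, adjusted p = 0.0433) were higher in KO against Compl, the 2 called among 5 other ZIP genes tested. OPT3, an oligopeptide transporter of the phloem that carries iron, was higher in KO (0.83 ± 0.14, adjusted p = 0.0035), EXS32 (0.58 ± 0.14, adjusted p = 0.0242) and EXS34 (0.89 ± 0.14, adjusted p = 0.0035) against Compl. These comparisons share the libraries labelled Compl. YSL3, a transporter of metal nicotianamine complexes, was higher in KO (0.59) and EXS34 (0.43) against Compl and in EXS34 against EXS32 (0.80), and lower in EXS32 against KO (-0.96), whereas YSL1 was lower in KO (-0.69) and EXS34 (-1.12) against Compl. PCR2 was higher in EXS34 against Compl (1.58) and against EXS32 (2.45). PAA2 was lower in KO (-0.45) and EXS34 (-0.44) against Compl, and HMA1 was higher in KO against Compl (0.38) and lower in EXS34 against KO (-0.39). IAR1 (-0.39) and MTP12 (-0.62) were lower in EXS32 against Compl. In EXS34 against Compl MTP12 (-0.55) and MTP7 (-0.36) were lower, and MTP9 (1.21) and ZIF1 (0.72) higher. The adjusted p-values of these calls ran from 0.0061 to 0.046. None of bZIP19, bZIP23 and bZIP24 was called in a leaf pair.

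**Figure D5:**
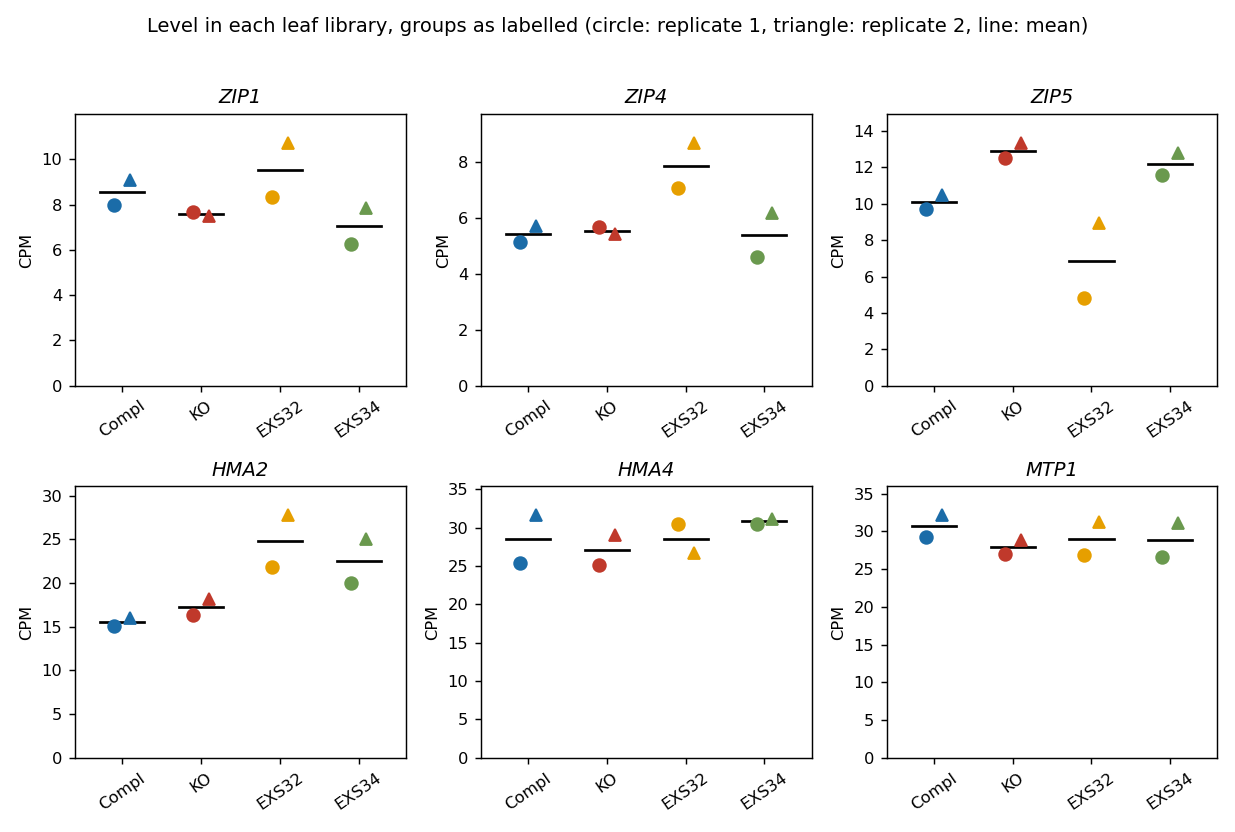
Levels of the 6 zinc transporter genes tested in leaves, in CPM (y axis), by labelled genotype (x axis). Circles are replicate 1, triangles replicate 2 and lines the mean of 2. HMA2 has its highest mean in the libraries labelled EXS32 and its lowest in those labelled Compl, and ZIP5 is lowest in those labelled EXS32.

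Whether a genotype difference depended on the organ was tested as an interaction over all 16 libraries, roots minus leaves. In KO against Compl 2 of 10 genes passed, ZIP5 and HMA2, where 13.4% of all genes did. In EXS32 against Compl 2 passed, HMA2 and MTP1 (background 16.3%), and in EXS34 against EXS32 1 passed, HMA2 (background 6.78%). None passed by edgeR or DESeq2 in EXS32 against KO (background 1.55%), with 0 unadjusted p-values under 0.05, or in EXS34 against KO (background 1.74%), with 1. None passed by edgeR in EXS34 against Compl (background 6.34%), with 2 unadjusted p-values under 0.05, and DESeq2 called those 2, ZIP5 and HMA2, with 9.6% of all genes. For HMA2 the KO against Compl difference was -1.18 in roots and 0.15 in the leaf libraries with those labels, and the EXS32 against Compl difference was -1.05 in roots and 0.67 in leaves. With leaf groups named by their files both HMA2 interactions passed as well (adjusted p = 0.0129 and 0.0395), whereas those of ZIP5 and MTP1 and the HMA2 interaction of EXS34 against EXS32 did not. HMA4 did not pass in KO against Compl (0.52 ± 0.21, adjusted p = 0.133) or EXS32 against Compl (0.61 ± 0.22, adjusted p = 0.0764). In EXS34 against Compl ZIP5 was at -1.29 ± 0.38 (adjusted p = 0.0647) and HMA2 at -0.78 ± 0.24 (adjusted p = 0.0689), and in EXS34 against EXS32 MTP1 was at -0.70 ± 0.21 (adjusted p = 0.063) and ZIP1 at 1.08 ± 0.44 (adjusted p = 0.172). In EXS32 against Compl ZIP4 was at -1.204 ± 0.51 (adjusted p = 0.137) and ZIP5 at -0.96 ± 0.39 (adjusted p = 0.122), and in EXS34 against KO HMA2 was at 0.54 ± 0.23 (adjusted p = 0.281). Without root Compl replicate 1 the HMA2 interactions of KO (-1.23, adjusted p = 0.0134) and EXS32 (-1.61, adjusted p = 0.00205) and that of MTP1 (1.03, adjusted p = 0.00336) passed, and that of ZIP5 in KO did not (-1.17, adjusted p = 0.0615).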

How the data were processed

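The authors deposited 1 table of whole-number read counts for each library, and the labels' protocols describe a stranded mRNA kit. The submitters' processing notes name TopHat2 2.0.9, cutadapt 1.2.1, limma, edgeR, R 3.1.1, HTSeq 0.5.4p3 and TAIR10, without roles or settings. Lines for reads that named no gene (roots 8.57 to 10.26%, leaves 7.26 to 7.77%) were dropped. The chi-square per degree of freedom between libraries of 1 group was 4.16 to 39.2, above sampling noise, and every library counts as 1 replicate.

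Groups follow the sample labels. The replicate 2 libraries of EXS34 carry number 1 in their descriptions and were taken from their titles. Tests were robust quasi-likelihood tests of edgeR 4.0.16 (R 4.3.3) with TMM scaling and Benjamini-Hochberg adjustment over all genes that passed filterByExpr, run at a minimum count of 10 and a minimum total of 15. Pairs of genotypes were tested in the 8 libraries of an organ (20597 genes in roots, 18548 in leaves), and organs and interactions in all 16 libraries (21351 genes). Standard errors are the log2 fold change over the square root of F. The test was also run on simulated counts with no outlying library, and no result here rests on that check. CPM and RPKM were computed from the counts and from exon lengths of the TAIR10.1 gene models. MTP2 and 7 further MTP genes were matched by locus identifier, since the symbol table names them otherwise.

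The 10 genes and the other lists were chosen with earlier results of these data known. Every one of the 10 genes is described, with fold changes for the organ comparison and where the unadjusted p was under 0.05. Genes of the other lists are named where called between genotypes of an organ, except leaf markers in leaves, or between organs, except markers. Called genes of these lists in the interactions are not named. For the 2 genes with the widest root range, 5 genes of like pattern (mean of at least 1 CPM) are named. ALIS1, AT4G30100, PHO1, and the uncalled bZIP23 and IRT3 in roots were named after their values were seen. Alternatives were DESeq2 1.42.0 and its size factors, library size alone, no filter, a replicate block, other sets of libraries, leaf groups by file name, and leaving out each library. Leaving root Compl replicate 1 out of the other lists was added after seeing the data.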

Additional observations from a re-analysis of the deposited data

Results flagged for a closer look

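The effect of genotype differed between roots and leaves in 5 cases by the interaction test of edgeR. Over all genes 13.4% passed this test in KO against Compl, 16.3% in EXS32 against Compl and 6.78% in EXS34 against EXS32. The number of cases is therefore not read as a result about these genes. Each value below is the root log2 fold change minus the leaf one. For HMA2 it was -1.32 ± 0.24 in KO against Compl (adjusted p = 0.0049), with Compl above KO in roots and the labelled groups close together in leaves. For HMA2 in EXS32 against Compl it was -1.70 ± 0.24 (adjusted p = 0.000677), lower in roots and higher in leaves. For HMA2 in EXS34 against EXS32 it was 0.92 ± 0.23 (adjusted p = 0.0364). For ZIP5 in KO against Compl it was -1.52 ± 0.38 (adjusted p = 0.0215). For MTP1 in EXS32 against Compl it was 0.79 ± 0.21 (adjusted p = 0.0221).

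These tests pair root and leaf groups by label, and the leaf files carry other genotype names. With leaf groups named by their files the HMA2 values became -1.52 ± 0.23 for KO against Compl, -0.89 ± 0.24 for EXS32 against Compl and 0.10 ± 0.24 for EXS34 against EXS32 (adjusted p = 0.92). ZIP5 in KO against Compl became -1.06 ± 0.37 (adjusted p = 0.188) and MTP1 in EXS32 against Compl became 0.56 ± 0.20 (adjusted p = 0.119). Which naming holds was not tested. Over 14 other settings, which leave out each library in turn among them, the call of ZIP5 in KO against Compl was lost in 8 (adjusted p = 0.00223 to 0.188 over the settings), that of MTP1 in EXS32 against Compl in 6 (0.00336 to 0.119) and that of HMA2 in EXS34 against EXS32 in 6 (0.00834 to 0.92). Without root Compl replicate 1 the ZIP5 value was -1.17 ± 0.36 (adjusted p = 0.0615).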

How the results depend on the processing

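None of the fold changes recomputed under the alternatives (those of the organ comparison and those with an unadjusted p under 0.05) changed direction. The leaf pairs were not recomputed by file name, which only renames them. In roots the number of the 10 genes called in KO against Compl was 1, and it became 0 with the replicate block (HMA2, adjusted p = 0.05) or with only the groups compared, and 2 with DESeq2 or with all 16 libraries in 1 fit. EXS32 against KO went from 0 to 1 with only the groups compared, EXS34 against KO and EXS34 against Compl from 0 to 1 with DESeq2, and EXS34 against EXS32 from 0 to 3 with DESeq2 and 2 with all 16 libraries. MTP1 in EXS32 against Compl was lost with only the groups compared (adjusted p = 0.0627). In leaves EXS32 against KO went from 0 to 1 without the filter and 2 with the replicate block, EXS34 against Compl from 0 to 1 with library size alone, no filter or the block, and EXS34 against EXS32 from 0 to 1 with the block. With leaf groups named by file, the interactions of KO against Compl and of EXS32 against Compl went from 2 to 1 and that of EXS34 against EXS32 from 1 to 0. The interaction of EXS34 against EXS32 gave 2 with library size alone, and that of EXS34 against Compl 2 with DESeq2. The share of all genes called moved as well. In roots KO against Compl it was 0.884%, and 0.505% with the block, 0.054% with only the groups compared, 6.14% with DESeq2 and 5.25% with all 16 libraries. For EXS32 against KO with only the groups compared it was 2.54%, and for EXS34 against EXS32 with all 16 libraries 4.96%. In leaves the block moved it from 5.93 to 11.6% for EXS32 against KO, from 18.4 to 23% for EXS34 against Compl and from 5.69 to 9.92% for EXS34 against EXS32. The causes were not tested.

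Leaving out 1 library at a time gave 0 to 2 genes in roots for KO against Compl, 0 to 3 for EXS32 against Compl, 0 to 1 for EXS34 against Compl and 0 for the other 3 pairs. Over all settings the share of all genes called ran from 0 to 6.81% in KO against Compl, from 0.535 to 18% in EXS32 against Compl and from 0 to 3.33% in EXS34 against Compl. In leaves the number of genes called moved for EXS32 against KO, EXS32 against Compl, EXS34 against Compl and EXS34 against EXS32, and not for the other pairs. In the organ comparison it moved too, and it includes the 4 genes whose filter fixes their direction. Among the interactions the number moved for KO, EXS32 and EXS34 against Compl and for EXS34 against EXS32, and not for the other 2. Such a fit leaves 1 library in a group. The share of all genes called moved over the settings as well, so these shifts are not read as a result about the 10 genes. The HMA2 interactions of KO and of EXS32 against Compl passed in every setting run.

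Replicate numbers were not taken to pair the samples, since not every pair of groups reached a correlation of 0.1: deviations of same-numbered libraries from their group means correlated at -0.31 to 0.25 in roots and 0.03 to 0.32 in leaves. In leaves the 4 low genes had 4 to 30 reads in all.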
